A study of Rattus norvegicus with 4 samples.

Results

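The libraries that carry the second technical replicate number were compared with those that carry the first in S16 cells, an immortalized rat Schwann cell line. The comparison used all 4 libraries analysed here. RNA came from 2 unmodified S16 populations, the parental cells of the study's enhancer deletion lines at passage 9 and an older culture at passage 39, each grown to confluence in a T-75 flask in medium with L-glutamine and then taken through poly(A) selection. Each population gave 1 first library and 1 second library, so that by the labels both groups hold the same 2 populations, with no treatment or edited allele in either, and the 2 libraries of a population are technical replicates of each other. Both second libraries nevertheless differed widely from both first ones, and the reason was not tested. Tubb2b, the beta-tubulin gene that the study follows in its deletion lines, was at 12.2 and 12.3 RPKM in the libraries labelled first and at 1.86 and 1.63 RPKM in those labelled second, while Gmnn, the other gene it follows there, was 1.14-fold higher in the second. Whether the second libraries hold unmodified cells, or whether a label was crossed, was not tested. The labels name no RNA preparation, lane or run date, and the study's methods say only that such libraries were sequenced as pools on 2 lanes, so the library number and any batch cannot be told apart.

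Schwann cells ensheathe the axons of peripheral nerves and, when they myelinate, wrap them in a membrane rich in cholesterol and galactolipids that is held together by proteins such as MBP and PMP22. The transcription factor SOX10 keeps the lineage, and EGR2 drives the myelin genes together with it. Schwann cells also lay down a basal lamina of laminins and collagens, which they bind through integrins, and S16 is used as a model because it expresses many genes of myelinating cells.

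Levels are RPKM values as deposited, that is, reads scaled to gene length and library total, for 30708 genes in each library. The comparison kept the 11025 genes that averaged 1 RPKM or more across the 4 libraries. The totals recovered from these values were 34.2 to 41.4 M reads (M, 1000000), with the deepest and the shallowest library both in the first group, and 79.4 to 81.5% of the reads lay on listed genes. The markers of the labelled cell type were present in every library. Sox10 was at 171 to 183 RPKM, Pmp22 at 1216 to 1293 RPKM and Ngfr, the low-affinity neurotrophin receptor, at 269 to 292 RPKM. The summed level of 9 melanocyte markers was 33.1 and 33.4 RPKM in the first and 15.3 and 16 RPKM in the second libraries. It was carried by Ednrb, Pmel and Mitf, while Tyr, Kit and Slc45a2, 3 of the 9, were listed at 0 in every library. Nearly all of the fall was in Ednrb (21.2 and 21.7 against 4.27 and 4.33 RPKM). Of the 3 tested markers it alone was called lower, and the other 2 were not called. The 10 macrophage and leukocyte markers summed to between 2.87 and 3.54 RPKM, with Ptprc, Itgam and Lyz2 listed at 0 throughout, and the 10 endothelial and pericyte markers to between 22.3 and 24.8 RPKM, with nearly all of the sum from Pdgfrb and with Cdh5, Kdr, Cldn5 and Rgs5 listed at 0. The 12 neuronal markers summed to 147 and 151 RPKM in the first and 107 and 104 RPKM in the second libraries, mostly through the neurofilament genes Nefl and Nefm, with Syt1, Stmn2 and Elavl4 listed at 0. Most of that fall was in Nefl (112 and 116 against 74.6 and 72.7 RPKM), and of the 4 tested markers 2 were lower and 2 higher. The 10 oligodendrocyte markers summed to between 17.3 and 20.1 RPKM, with Opalin, Ermn and Nkx6-2 listed at 0. The 11 fibroblast markers summed to 3447 and 3461 RPKM in the first and 3951 and 3843 RPKM in the second libraries, nearly all of it the collagen gene Col1a1, with Thy1, Fap and Twist1 listed at 0. A listed 0 need not be an absence, since the ribosomal protein genes Rps6 and Rplp2 were listed at 0 in every library too. In bulk RNA, fewer cells of a type and less RNA per cell cannot be told apart.

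The second libraries differed from the first at most expressed genes, and by similar amounts in both populations. A gene was called when its limma adjusted p (Benjamini-Hochberg over all genes tested) was under 0.05 and both second libraries lay on the same side of both first libraries. This held for 8126 genes, or 73.7% of those tested. Of these, 5440 (49.3% of genes tested) were higher and 2686 (24.4%) were lower in the second libraries. These shares are the reference for the counts of list members given below. The p-values measure only the spread between these libraries, which may be technical. Most of the differences were small. A difference is given below as the mean log2(RPKM + 1) of the second minus that of the first libraries, and its median absolute value was 0.21. Only 316 genes (2.87%) were called at 1.5-fold or more higher and 349 (3.17%) at 1.5-fold or more lower, and 39 (0.354%) and 80 (0.726%) reached 2-fold, that is, a difference of 1 on this scale (28 and 116 under median-ratio scaling). The values just inside and just outside the 2-fold limit were 1.001 and 0.989 above, and -1.009 and -0.993 below. The split between directions depended on the scaling. All genes shifted by a median of 0.10, and after median-ratio scaling of the libraries 3745 genes were higher and 3822 were lower, so that the higher share of called genes went from 66.9% to 49.5%, and to 43.4% when each library was scaled to a sum of 1000000.

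Each gene has 2 separate second minus first differences, one per population. Across the 11025 genes these had a Pearson correlation of 0.943 and a Spearman correlation of 0.925, and 10079 genes had the same sign in both. Genes are not independent replicates, and the differences of the 2 populations share no library. The SD of the differences over genes was 0.339 at passage 9 and 0.334 at passage 39. At least 2-fold differences were found for 132 genes at passage 9 and 121 at passage 39, and 107 were 2-fold the same way in both. The passages differed far less. The difference of passage 39 minus passage 9 had an SD of 0.080 in the first and 0.082 in the second libraries, with a correlation between them of 0.014 (Spearman 0.021), so that libraries with the same number were closer to each other than libraries of the same population. By limma 0 genes (0%) were called between passages, with 3 at an unadjusted p under 0.05. That fit has no block, so the differences between library numbers enter its spread, and it could hardly call a passage difference. With the library number as a block, 643 genes reached an unadjusted p under 0.05 and 1 was called. With no difference between passages, a share of 0.05 of the 11025 genes would reach such a p.

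**Figure D1:**
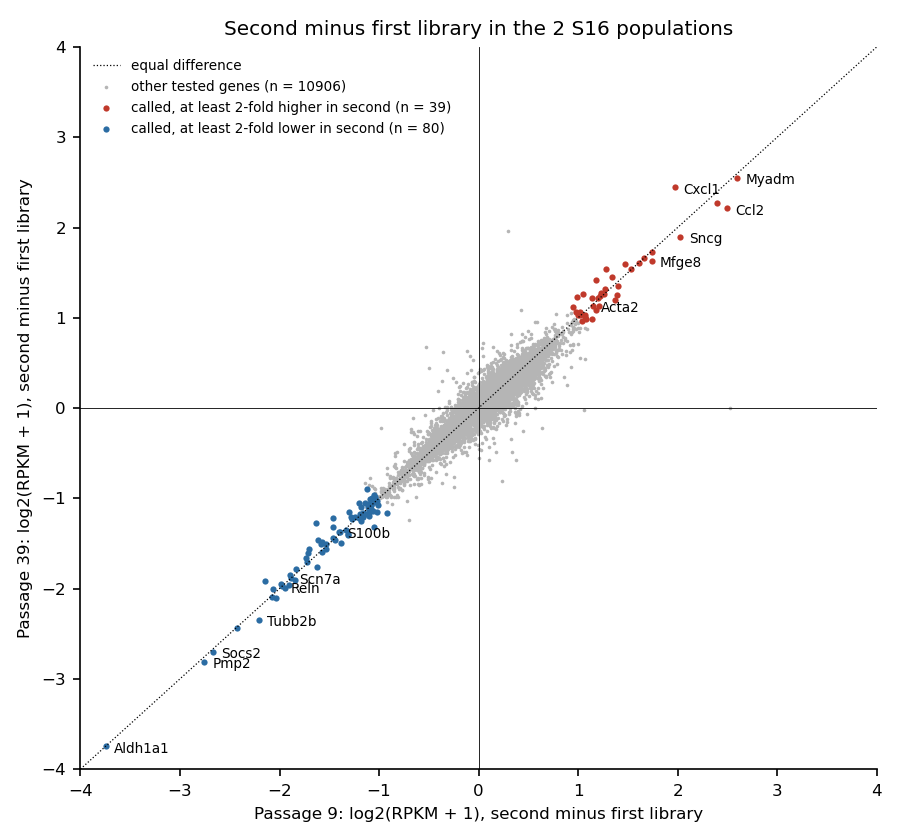
Second minus first library on the log2(RPKM + 1) scale for each of the 11025 genes, with passage 9 on the x axis and passage 39 on the y axis. Red and blue points are the 39 and 80 genes called at 2-fold or more higher or lower, which run along the dotted line of equal difference, as do most of the grey points of the other genes.

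The largest reduction was in Aldh1a1, which makes retinoic acid from retinal. It was at 40.1 RPKM (passage 9) and 39.6 RPKM (passage 39) in the first libraries and at 2.07 and 2.02 RPKM in the second. Both second libraries were thus 19.5-fold lower on average, with 174 and 199 reads against 3987 and 3254, and the log2 difference was -3.75 (SE 0.035, limma adjusted p = 2.34e-09). Pmp2, the fatty acid binding protein of peripheral myelin, was at 58.2 and 55.1 RPKM in the first and 7.74 and 6.98 RPKM in the second libraries, a 7.70-fold reduction. Socs2, a feedback inhibitor of growth hormone signalling, went from 14.6 and 15.5 RPKM to 1.45 and 1.53 RPKM, a 10.1-fold reduction. The rule of calling allows no overlap of the groups, and the passages lay close together within each group. Abca8a, a lipid transporter of the ABC family, was 8.01-fold lower (log2 difference -2.43), and Atp10b, a phospholipid flippase, was 5.39-fold lower (log2 difference -2.04).

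Several of the most reduced genes encode receptors, ligands and adhesion molecules of nerve. Ednrb, the endothelin B receptor of neural crest derivatives, was at 21.2 and 21.7 RPKM in the first and 4.27 and 4.33 RPKM in the second libraries. Reln, a secreted guidance protein, was at 41.4 RPKM in both first and at 9.78 RPKM in both second libraries, a log2 difference of -1.98 (SE 0.027, limma adjusted p = 6.09e-09). Scn7a, a sodium channel family member typical of non-myelinating Schwann cells, was at 66.7 and 67.6 RPKM in the first and 17.3 and 17.6 RPKM in the second libraries. In all 3 genes the 2 populations differed far less than the library numbers did. Chl1, an L1-family adhesion molecule of immature Schwann cells, was 7.36-fold lower, and Lpar4, a receptor for lysophosphatidic acid, was 4.48-fold lower. Tubb2b was 7.03-fold lower, with the values given at the start. The insulin-like growth factor Igf1 and its binding proteins Igfbp5 and Igfbp3 were 6.94-fold, 4.30-fold and 4.19-fold lower. Mmp2, the gelatinase A of the matrix, was at 66.7 and 67.7 RPKM in the first and 16.6 and 16.2 RPKM in the second libraries.

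The largest increase was in Myadm, a membrane protein of lipid rafts with MARVEL domains. It was at 11.8 and 12.7 RPKM in the first and 76.9 and 78.9 RPKM in the second libraries, a 6.36-fold difference (log2 difference 2.57, SE 0.035, limma adjusted p = 6.09e-09). It rested on 1535 and 1361 reads in the first and 8456 and 10161 reads in the second libraries. Ccl2, the monocyte chemokine, was at 2.57 and 2.81 RPKM in the first and at 19.1 and 16.6 RPKM in the second libraries. Cxcl1, a neutrophil chemokine, went from 1.06 and 0.720 RPKM to 7.12 and 8.37 RPKM, and its first libraries had a mean of 0.891 RPKM, under the minimum of 1 RPKM, so that it was tested only through the second group. Il1rl1, the interleukin 33 receptor, was 4.24-fold higher. These 4 genes were picked as among the 15 largest called increases, so a gap between the groups follows from that choice. Mfge8, a secreted bridge for phagocytosis, was at 45.3 and 46.8 RPKM in the first and 154 and 147 RPKM in the second libraries, and Sncg, gamma-synuclein, was 4.17-fold higher.

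Some increases began near the detection limit. Rhox5, a homeobox gene of the X-linked reproductive cluster, was at 0.351 and 0.407 RPKM in the first and at 6.12 and 5.82 RPKM in the second libraries. Cdh15 (M-cadherin), Cav3 (a caveolin of muscle) and the small GTPase Mras were under 1 RPKM in the first group on average and 4.23 RPKM (Cav3), 4.80 RPKM (Cdh15) and 3.96 RPKM (Mras) in the second. The interferon-inducible Ifi27l2b had the fewest reads of the 30 largest changes, with 10 in its lowest library. Such genes passed the minimum only through the group where they were high, and this was so of 9 of the 39 genes at 2-fold or more higher and, in reverse, of 13 of the 80 at 2-fold or more lower. The lower ones include Chl1, Cxcl12, Tubb4a, Cdh6 and Sema3e. Their second means were 0.939, 0.848, 0.798, 0.555 and 0.595 RPKM, so the folds given for them rest on low values. At any size of difference, 234 tested genes had 1 group mean under 1 RPKM, and 197 of them were called. Steap1, of the STEAP family of metalloreductases, was at 17.3 and 17.7 RPKM in the first and 47.1 and 46.7 RPKM in the second libraries, and Wisp2, a matricellular protein of the CCN family, was 2.54-fold higher. Trib3, a pseudokinase induced by amino acid stress, was 3.44-fold higher, and MGC114427, which carries only a clone name, was 4.46-fold higher. Among the 30 genes the smallest second minus first difference was 1.32 on the log2 scale, and the largest difference between passages was 0.21.

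**Figure D2:**
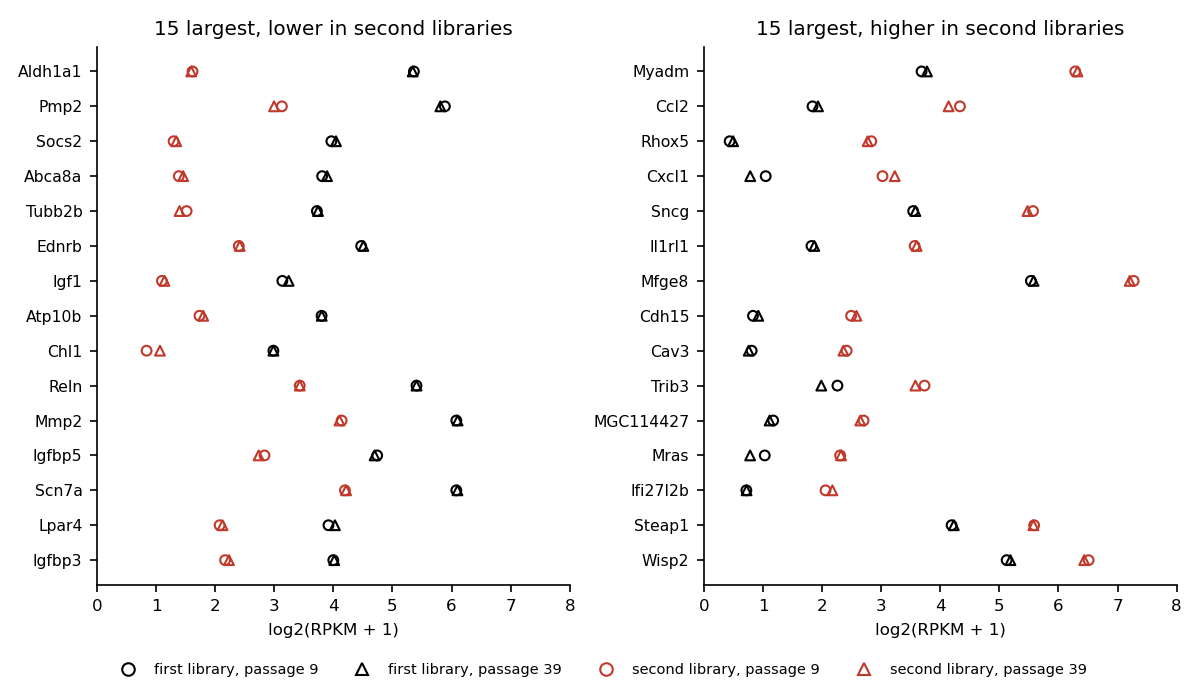
log2(RPKM + 1) of the 15 genes with the largest reductions (left) and the 15 with the largest increases (right) in the second libraries, 1 point per library. Black symbols are first and red symbols second libraries, circles passage 9 and triangles passage 39. In every gene the red and black symbols lie apart, which the rule of calling requires. For Aldh1a1 they are at 40.1 and 39.6 against 2.07 and 2.02 RPKM.

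Myelin genes were lower as a group, whereas the lineage factor Sox10 was not called. Of 20 myelin genes in the list, 15 passed the minimum, and of these 12 were lower, 2 higher and 1 not called. Their median difference was -0.47, beside 0.10 over all genes tested, of which 24.4% were lower. Mal, a raft proteolipid of compact myelin, was at 43.8 and 44.4 RPKM in the first and 18.7 and 18.1 RPKM in the second libraries, a 2.39-fold reduction (log2 difference -1.22, SE 0.027, limma adjusted p = 6.34e-08), and Gldn (gliomedin), which clusters sodium channels at nodes, was 1.72-fold lower. Mbp, the basic protein that compacts the cytoplasmic faces of myelin, was at 50.6 and 50.9 RPKM in the first and 29.5 and 29.7 RPKM in the second libraries. S100b, the calcium-binding Schwann cell marker, stood at 85.7 and 86.6 RPKM in the first and 31.8 and 32.8 RPKM in the second libraries. The rule of calling allows no overlap between the library numbers, so its absence in these genes is no separate result. After median-ratio scaling or length correction all 15 tested myelin genes were lower, including Pmp22, which was higher as deposited (log2 difference 0.08) and lower under both corrections.

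The transcription factors of the lineage did not move one way (of all genes tested 49.3% were higher and 24.4% lower). Of 20 tested, 8 were higher, 6 lower and 6 not called, and their median of 0.06 turned to -0.06 under median-ratio scaling. Egr2, the activator of myelin genes, was at 5.90 and 6.21 RPKM in the first and 10.5 and 11 RPKM in the second libraries. Its direction was thus opposite to that of most myelin genes. Sox10 was at 174 and 171 RPKM in the first and 183 and 176 RPKM in the second libraries (log2 difference 0.06, SE 0.023, limma adjusted p = 0.059), and its sign turned under both scalings and under length correction. Id1, an inhibitor of helix-loop-helix factors, was 1.47-fold higher. Foxd3, a neural crest factor, was 1.48-fold lower, and the zinc finger factors Zeb1 and Zeb2 were 1.47-fold and 1.38-fold lower. Of 15 tested genes of immature and repair Schwann cells, 4 were higher, 8 lower and 3 not called (median -0.08). Nes (nestin) was 1.66-fold higher, while Gfap was 1.41-fold and Erbb3, the neuregulin co-receptor, 1.37-fold lower.

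Cholesterol genes were lower almost throughout the pathway. The cholesterol list holds enzymes from acetyl-CoA to cholesterol with the genes of sterol uptake and regulation, and 24 of its 25 members were tested, of which 21 were lower, 2 higher and 1 not called. The median was -0.39, and -0.40 within each population. Hmgcs1, which makes HMG-CoA, was at 72.9 and 72.4 RPKM in the first and 47.9 and 47.8 RPKM in the second libraries. Sqle (squalene epoxidase) was 1.48-fold lower, and Tm7sf2, a sterol reductase, 1.71-fold lower. Stard4, a cytosolic sterol carrier, went from 10.9 and 11.3 RPKM to 4.75 and 5.30 RPKM, the largest difference of the list (log2 difference -1.01, SE 0.052, limma adjusted p = 2.07e-06). The regulator Srebf2 (log2 difference -0.39) was lower too. The 2 members called higher were Pmvk and Ebp, at log2 differences of 0.18 and 0.19. The list stayed at 21 lower under median-ratio scaling and had 22 lower under length correction.

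Of 16 tested fatty acid synthesis genes, 11 were lower and 3 higher (median -0.16), beside 24.4% and 49.3% of all genes. Acly, which supplies cytosolic acetyl-CoA, was 1.49-fold lower and the desaturase genes Scd1 and Scd were 1.51-fold and 1.33-fold lower, but Me1, the cytosolic malic enzyme that supplies NADPH, went from 4.83 and 4.81 RPKM to 12.4 and 12.5 RPKM. Among 20 sphingolipid and galactolipid genes, 11 were lower and 7 higher (median -0.09). The lower ones include the enzymes of myelin galactolipid synthesis. Fa2h, which hydroxylates their fatty acids, was at 6.78 and 6.40 RPKM in the first and 2.53 and 2.58 RPKM in the second libraries. Ugt8, which adds galactose, was 1.30-fold lower and Gal3st1, which adds sulfate, 1.97-fold lower.

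**Figure D3:**
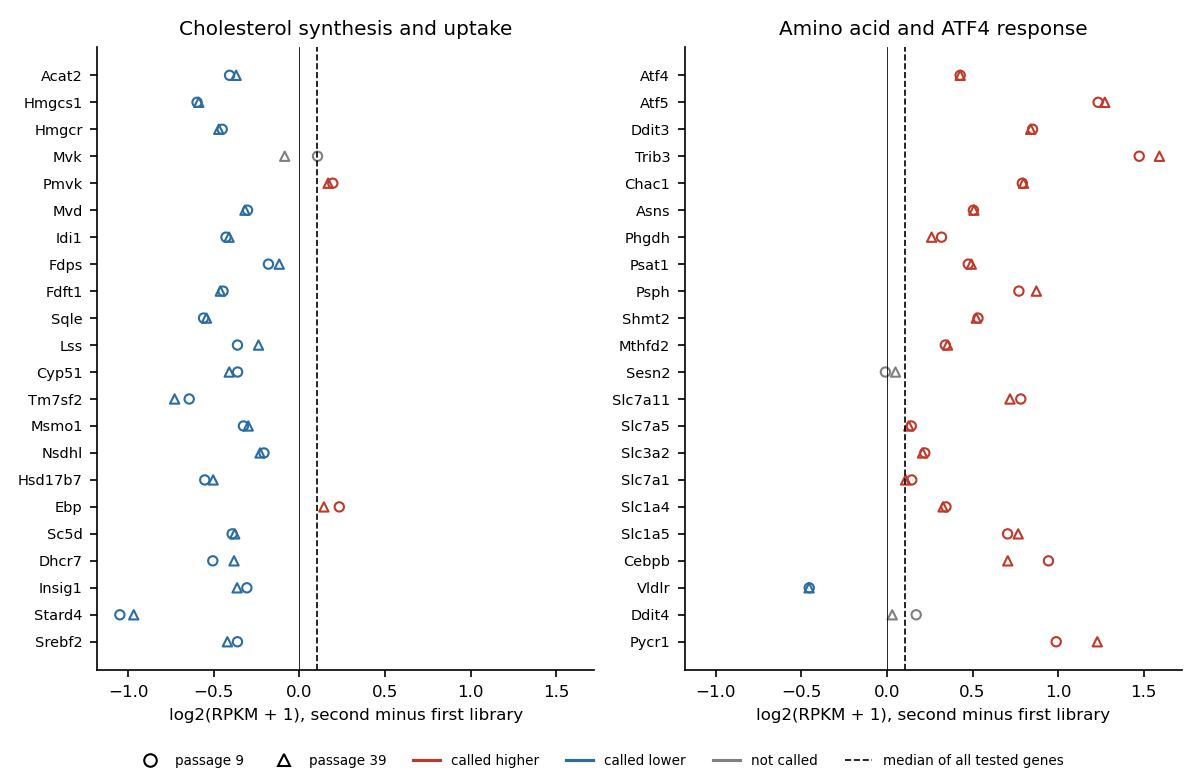
Second minus first library on the log2(RPKM + 1) scale for 22 of the 24 tested members of the cholesterol list (left) and for the 22 tested members of the amino acid and ATF4 list (right), with circles for passage 9 and triangles for passage 39. Blue marks genes called lower, red genes called higher and grey genes not called, and the dashed line is the median of all tested genes (0.10), with 19 of the 22 cholesterol genes drawn lower and 19 of 22 amino acid genes higher.

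Genes of the stress responses to amino acid shortage, oxidants and unfolded protein were higher. The transcription factor ATF4 raises amino acid synthesis and transport genes when translation initiation is slowed, and of 22 tested members of its list 19 were higher, 1 lower and 2 not called, with a median of 0.50, whereas 49.3% of all genes were higher. Atf5, a related factor, was at 66.2 and 63.6 RPKM in the first and 157 and 155 RPKM in the second libraries, a log2 difference of 1.25 (SE 0.024, limma adjusted p = 3.27e-08). Pycr1, of proline synthesis, went from 11.2 and 9.95 RPKM to 23.2 and 24.7 RPKM. Ddit3 (CHOP) was 1.81-fold higher, Psph, the last enzyme of serine synthesis, 1.80-fold and the factor Cebpb 2.03-fold. The Atf4 transcript itself differed by 0.43 on the log2 scale. The 1 member called lower was Vldlr, a lipoprotein receptor (log2 difference -0.45). With length correction 18 were higher and 2 lower, at a median of 0.35.

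Of 16 tested targets of the oxidant-responsive factor NRF2, 15 were higher and 1 was not called (median 0.45), the exception being Nfe2l2, which encodes NRF2 (log2 difference 0.07). Hmox1 (heme oxygenase) was at 24.3 and 23.3 RPKM in the first and 57.9 and 56.4 RPKM in the second libraries. The cystine transporter gene Slc7a11, which is also in the ATF4 list, went from 0.658 and 0.820 RPKM to 1.85 and 2.00 RPKM. Its first mean was 0.739 RPKM, so it was tested in both lists only through the second group. Srxn1, which repairs peroxiredoxins, was 1.84-fold higher, and Akr1b8, an aldo-keto reductase, 2.68-fold. With length correction 11 were higher and 1 lower. Of 12 tested heat shock genes 11 were higher and 1 was not called (median 0.36). Hspb1, a small heat shock protein, was at 78.3 and 79.4 RPKM in the first and 182 and 174 RPKM in the second libraries, and Cryab, another of that family, was 1.62-fold higher. The chaperones of the endoplasmic reticulum differed less, with 13 of 19 higher, 1 lower and a median of 0.19 that was 0.03 after length correction. Of 20 chemokine and cytokine genes only 9 passed the minimum, and 7 of these were higher (median 0.53), with 5 higher and a median of 0.25 after length correction. Beside Ccl2 and Cxcl1, Il6 was 2.06-fold and Cxcl16 2.19-fold higher, while Cxcl12, the ligand of CXCR4, was 5.58-fold lower (4.77 and 4.69 RPKM in the first, 0.774 and 0.921 RPKM in the second libraries).

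The promoters of the stress genes were searched in the RefSeq sequences of the rat GRCr8 build, in a window of 250 bases before to 50 bases after the start site. These sequences are shown because they belong to the genes that moved together, and a match is a description of letters and not evidence of binding. The C/EBP-ATF element TGATGNAA, searched on both strands, was in 5 of the 21 ATF4-list promoters found (23.8%) and in 1.80% of the 8340 promoters of tested genes. All 5 genes were called higher, but so were 19 of the 22 tested list members and 49.3% of all genes. The count therefore does not link the element to the direction. Each sequence runs 5′ to 3′ along the gene's strand and ends before the start site, with the matched letters in capitals, which appear as the reverse complement of the element where the match lies on the other strand. The positions are chr3:161275534-161275579 (Trib3, minus strand), chr3:126795939-126795996 (Chac1, plus strand), chr12:11664433-11664487 (Slc7a1, plus strand), chr14:98761765-98761812 (Slc1a4, minus strand) and chr10:106420911-106420968 (Pycr1, minus strand).
Trib3: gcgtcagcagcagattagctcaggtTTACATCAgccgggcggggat
Chac1: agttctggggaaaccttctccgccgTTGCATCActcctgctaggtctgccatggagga
Slc7a1: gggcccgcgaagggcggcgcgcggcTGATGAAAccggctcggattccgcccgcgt
Slc1a4: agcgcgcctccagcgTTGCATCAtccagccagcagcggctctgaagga
Pycr1: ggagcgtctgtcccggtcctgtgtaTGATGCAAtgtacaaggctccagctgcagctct

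These 5 genes had log2 differences from 0.13 (Slc7a1, a cationic amino acid transporter) and 0.34 (Slc1a4, a neutral amino acid transporter) through 0.79 (Chac1, which degrades glutathione) to 1.11 (Pycr1) and 1.53 (Trib3). Atf5 and Ddit3 were higher with no match in this window. The paired heat shock unit GAANNTTC, which reads the same on both strands, was in 7 of the 9 heat shock promoters found (77.8%) and in 5.36% of all. Of the 7 genes 6 were called higher, beside 11 of the 12 tested list members and 49.3% of all genes. Hspb1 has a second match, left in lower case further along the sequence shown, and Hspd1 and Hspe1 share 1 such site between their divergent starts. The sequences shown for 4 genes hold the match with its flanking bases. These sequences lie at chr12:26432398-26432455 (Hspb1, minus strand), chr9:64084242-64084299 (Hspe1, plus strand), chr12:10427312-10427367 (Hsph1, plus strand) and chr1:192533303-192533360 (Bag3, plus strand).
Hspb1: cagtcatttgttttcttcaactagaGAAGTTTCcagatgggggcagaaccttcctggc
Hspe1: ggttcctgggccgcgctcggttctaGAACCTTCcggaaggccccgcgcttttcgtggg
Hsph1: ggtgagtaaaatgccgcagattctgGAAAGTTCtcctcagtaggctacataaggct
Bag3: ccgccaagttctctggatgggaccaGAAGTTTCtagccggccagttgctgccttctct

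Hspe1, the mitochondrial co-chaperonin, was 1.38-fold higher, Hsph1, a nucleotide exchange factor of HSP70, 1.30-fold and Bag3, an autophagy co-chaperone, 1.31-fold. The other elements were searched in the same way. The antioxidant response element TGACNNNGC was in 3 of 13 NRF2-list promoters (23.1%) and in 15.1% of all, and the sterol regulatory element TCACNCCAC was in 0 of 17 cholesterol promoters and in 1.12% of all, which says only that these letters are not in these windows.

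Genes of the basement membrane and of cell adhesion were mostly lower, whereas 24.4% of all genes were lower and 49.3% higher. Of 22 tested genes of laminins, basement membrane and integrins, 17 were lower and 4 higher (median -0.35), and 17 and 3 after length correction. Lama2, the laminin chain of the Schwann cell basal lamina, was at 181 and 182 RPKM in the first and 110 RPKM in both second libraries. The integrin subunit genes Itga1 and Itga4 were 2.63-fold and 2.42-fold lower, and Nid1 (nidogen), which links laminin to collagen, 1.47-fold lower. Of 15 matrix proteases and inhibitors 10 were lower and 5 higher (11 and 4 after length correction). The aggrecanase Adamts5 was 2.06-fold and the membrane protease Mmp15 1.94-fold lower beside Mmp2, whereas Plaur, the urokinase receptor, was 1.67-fold higher. Collagens were split, 6 higher and 8 lower of 16 (7 and 8 after length correction). Col6a1 and Col6a2, which form collagen VI, were 1.59-fold and 1.61-fold higher, and Col3a1 was 1.67-fold lower.

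Of 15 cell adhesion genes 9 were lower and 2 higher (11 and 1 after length correction), beside 24.4% and 49.3% of all genes. Cdh6 was 5.87-fold lower, Nlgn3 (neuroligin 3) 2.98-fold, Cadm1, an adhesion molecule of the axon-glia contact, 2.83-fold and Cdh2 (N-cadherin) 1.49-fold. Tgfbi, a matrix protein induced by transforming growth factor beta, went from 173 RPKM in both first libraries to 58.9 and 58.3 RPKM in the second (log2 difference -1.55, SE 0.019, limma adjusted p = 5.99e-09), and the co-receptor gene Tgfbr3 was 1.96-fold lower. Of 23 growth factor and receptor genes, 12 were lower and 7 higher (14 and 6 after length correction). Gfra1, the receptor for glial cell line-derived neurotrophic factor, was 2.27-fold and Ntrk3, the neurotrophin 3 receptor, 2.50-fold lower. Of 20 axon guidance genes 11 were lower and 7 higher, but 10 lower and 9 higher after length correction, with Plxnb3, a semaphorin receptor, 2.04-fold lower. Of 16 actin cytoskeleton genes 9 were higher and 4 lower, near the shares of all genes, with a median of 0.15 (0.04 under median-ratio scaling). Within this list Acta2 (smooth muscle actin) was at 444 and 445 RPKM in the first and 986 and 974 RPKM in the second libraries, and Tagln, Tpm1 and Ankrd1 were 1.42-fold, 1.39-fold and 1.65-fold higher.

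Some related genes differed in opposite directions, and the pairs given here were chosen for that. Igf2 was at 17.2 and 17.1 RPKM in the first and 35.9 and 36.1 RPKM in the second libraries, while Igf1 went from 7.79 and 8.47 RPKM to 1.14 and 1.20 RPKM. Lama5 was 1.64-fold higher as Lama2 was lower. Sema3f was 2.31-fold higher, and Sema3e and Sema3c were 3.80-fold and 1.61-fold lower. The first mean of Sema3f was 0.969 RPKM, so it was tested only through the second group. Egr1 was 1.62-fold lower beside the higher Egr2, and the muscle and ubiquitous aldolase gene Aldoa was 1.33-fold higher while Aldoc, the brain form, was 1.59-fold lower. Among the 7 tested beta-tubulins, Tubb2b and Tubb4a (5.31-fold lower) fell, Tubb3, Tubb2a and Tubb5 were called higher by 1.26-fold, 1.19-fold and 1.07-fold, and 2 were not called. The signs of Tubb2a (length correction) and Tubb5 (both scalings and length correction) turned. Tubb2a and Tubb2b are near-identical, and since only uniquely mapped reads were counted, their values rest on the bases at which they differ.

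Signalling lists were mixed, and several had counts near the shares of all genes (49.3% higher and 24.4% lower). Of 20 tested immediate early genes 14 were higher and 4 lower (median 0.28), and 10 and 6 after length correction. Dusp1, a phosphatase of MAP kinases, was at 5.24 and 6.06 RPKM in the first and 10.5 and 9.94 RPKM in the second libraries, followed in size by Klf2 (1.73-fold higher), Egr2, Klf4 (1.56-fold higher) and Myc (1.53-fold higher). The feedback genes of ERK signalling went the other way, with 8 of 12 lower and 1 higher (median -0.15), for instance Spry1 (1.76-fold lower) and Etv5 (1.28-fold lower). The second mean of Spry1 was 0.970 RPKM, so it was tested only through the first group. Of 14 hypoxia genes 10 were higher and 3 lower, with Adm (adrenomedullin) 2.24-fold higher and Ndrg1, whose loss causes a demyelinating neuropathy, 1.88-fold lower. Glycolysis had 14 of 19 genes higher (median 0.13), which is close to the 0.10 of all genes. Of 15 Wnt genes 7 were higher and 7 lower, with Wnt5a 2.66-fold higher and the antagonist Sfrp1 1.63-fold lower. The Notch genes had 5 of 10 lower and 2 higher. The TGF-beta and BMP genes had 8 of 17 lower and 5 higher. The 14 interferon and MHC class I genes were split, 7 higher and 4 lower, with Bst2 (tetherin) 1.71-fold higher and Gbp2 1.78-fold lower. The signs of the medians of the interferon, Wnt and TGF-beta lists turned under both scalings and under length correction.

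Cell cycle genes were more often lower than higher. Of 34 tested, 19 were lower and 9 higher (median -0.13), beside 24.4% and 49.3% of all genes. Under median-ratio scaling 23 were lower and 6 higher (median -0.24), and after length correction 24 and 6 (median -0.27). Mki67, the proliferation antigen, was at 67.8 and 65.4 RPKM in the first and 37.7 and 37.9 RPKM in the second libraries, and Top2a and the mitotic kinesin Kif11 were 1.57-fold and 1.49-fold lower. Of the DNA replication licensing genes, Cdt1 was 1.30-fold higher, and Mcm2, Mcm6 and Mcm7 had log2 differences of 0.29, 0.31 and 0.27. Among p53 targets and inhibitors of cyclin-dependent kinases, 8 of 18 were higher and 3 lower, neither above the shares of all genes. Of these, Bax was 1.46-fold higher and Cdkn2c 1.36-fold lower.

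Subunits of large complexes were almost all higher, beside 49.3% of all genes. All 31 proteasome subunits and all 33 tested mitochondrial ribosomal proteins were higher, as were 38 of 39 genes of oxidative phosphorylation and 44 of 49 cytosolic ribosomal proteins, with none lower. The medians were 0.43, 0.34, 0.31 and 0.46, and for example Psma7 went from 181 and 183 RPKM to 280 and 273 RPKM, and Rps21 from 7.01 and 7.28 RPKM to 14.4 and 11.9 RPKM. At the other end, 22 of 24 very long genes of chromatin and cytoskeleton were lower and none was higher (median -0.36), with Dst (dystonin) at 34.6 RPKM in both first and 18.6 and 18.4 RPKM in the second libraries.

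The difference moved with gene length over all genes. Gene length, recovered from the RPKM values, had a Spearman correlation of -0.415 with the second minus first difference across 11024 genes and of 0.095 with the passage difference. Genes are not independent, and the values of one library share its depth. The median difference went from 0.28 in the shortest of 20 bins (30 to 635 bp) to -0.22 in the longest (7977 to 32211 bp). The 80 genes at 2-fold or more lower had a median length of 3419 bp, the 39 at 2-fold or more higher 1549 bp and all tested genes 2621 bp. After the median of each bin was subtracted, the medians of the proteasome, mitochondrial ribosome, oxidative phosphorylation and cytosolic ribosome lists were 0.21, 0.11, 0.06 and 0.19, and that of the very long genes was -0.14. With this correction 29, 21, 22 and 37 members of the 4 lists were called higher and 0, 0, 4 and 1 lower, and of the very long genes 16 were lower and 6 higher. The myelin list (median length 2385 bp) and the cholesterol list (2558 bp) lie near the middle of the range, and their corrected medians of -0.55 and -0.51 were further from 0 than those of the deposited values. Both median lengths fall in the bin of 2375 to 2621 bp, whose median of 0.14 is subtracted, so a move down follows from the method. Median-ratio scaling, with no length term, gave -0.58 and -0.50.

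**Figure D4:**
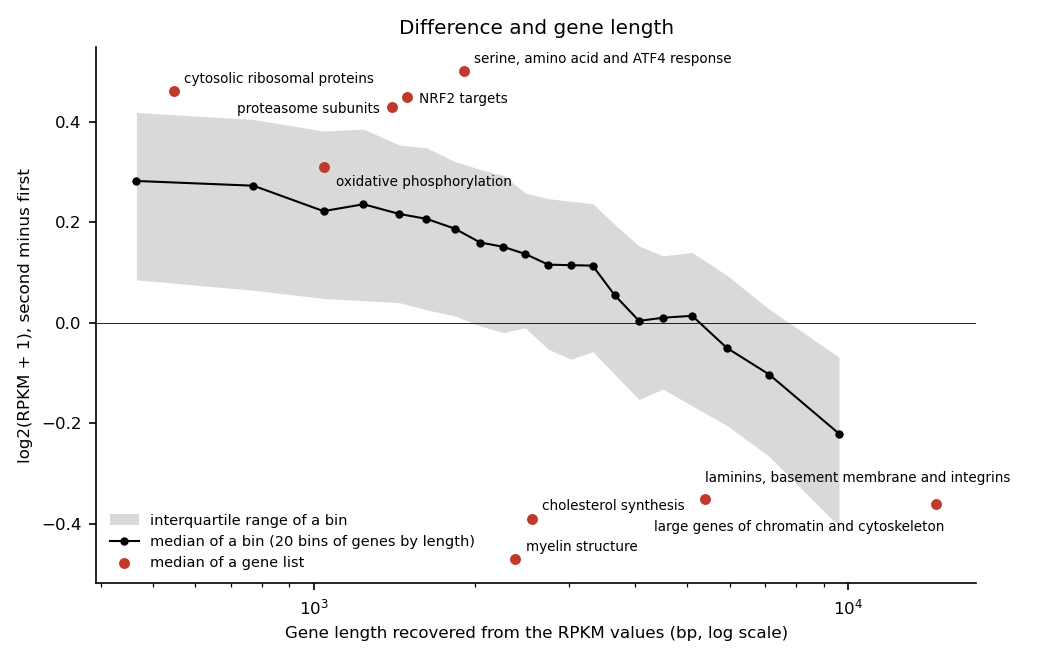
Gene length in bp on a log axis against the second minus first difference in log2(RPKM + 1). The black line joins the medians of 20 bins of genes by length, from 0.28 to -0.22, the grey band is their interquartile range, and red points are the medians of 9 gene lists. The myelin, cholesterol and laminin lists lie below the band, and the ATF4, NRF2, proteasome and cytosolic ribosome lists above it.

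**Figure D5:**
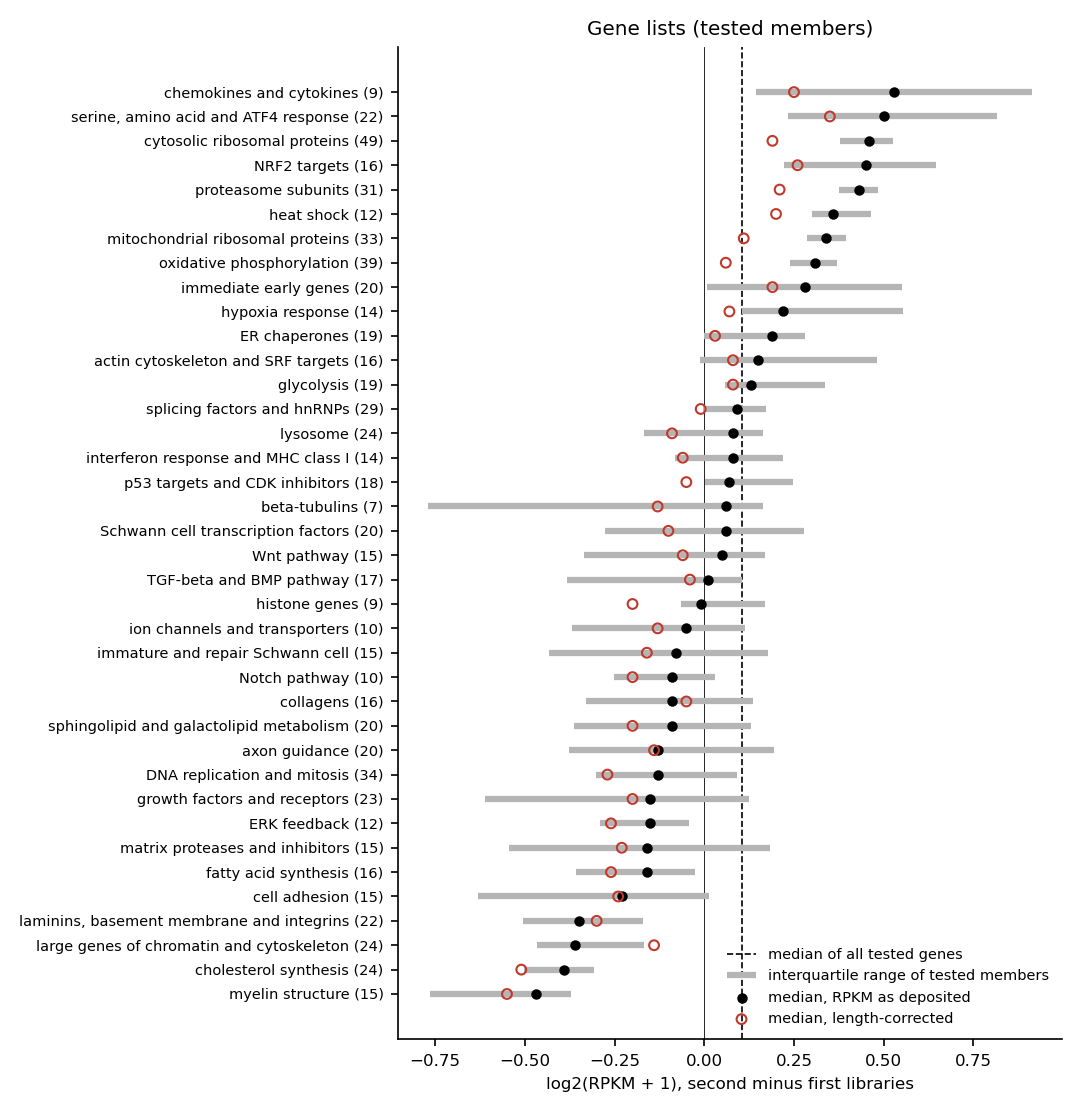
Median second minus first difference in log2(RPKM + 1) of each gene list with at least 7 tested members (number in brackets), as deposited (black) and after length correction (red), with the interquartile range of the members in grey. The dashed line is the median of all tested genes (0.10), and the lists run from -0.47 (myelin) to 0.53 (chemokines and cytokines).

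The remaining lists moved little or were small, and of all genes 49.3% were higher and 24.4% lower. Lysosomal genes had 12 of 24 higher and 9 lower as deposited, but 3 higher and 11 lower under median-ratio scaling and 3 and 13 after length correction, with Sqstm1 (p62), an autophagy receptor, 1.65-fold higher. Splicing factors had 16 of 29 higher and 5 lower (median 0.09), but 8 higher and 11 lower under median-ratio scaling and 8 and 13 after length correction. The medians of the lysosome, splicing, p53, beta-tubulin and glycolysis lists, all within 0.13 of 0, turned sign under at least 1 of the 2 scalings. Of 9 tested histone genes 4 were higher and 1 lower, and since most histone transcripts lack a poly(A) tail their levels after poly(A) selection are uncertain. Of 10 ion channel and transporter genes 5 were lower and 4 higher, with Scn7a far below the others and Cacnb3, a calcium channel subunit, 1.53-fold higher. Both tested noncoding RNAs of the last list, Gas5 and Snhg4, were higher, at 48.1 and 41.5 RPKM in the first and 75 and 70.9 RPKM in the second libraries for Gas5. Gmnn, which restrains replication licensing, was at 33.5 and 30.5 RPKM in the first and 37.0 and 35.8 RPKM in the second libraries, with a sign that turned under length correction.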

How the data were processed

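Poly(A) RNA-Seq libraries of 2 S16 populations were analysed. According to the study's methods and the submitters' processing notes, the authors ran FastQC, aligned single-end reads to rn5 with STAR and assigned the uniquely aligned ones to genes by HTSeq, with strand ignored, so overlapping antisense genes cannot be told apart. The authors deposited RPKM values per gene symbol, and the gene lengths and library totals behind them are not given in the sources used here. The methods give only an approximate number of reads per cell line, which is below the total recovered for each library, and the reason was not tested. Whole reads and lengths were recovered from ratios of the RPKM values for 18113 of 18114 genes above 0 in at least 2 libraries, a method tested on simulated data. Where the 4 read numbers of a gene share a divisor, the recovered reads can be too low by it. The libraries carried no molecular identifiers, so reads may be PCR copies.

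RPKM values were compared as log2(RPKM + 1) for genes averaging 1 RPKM or more, with limma 3.58.1 (R 4.3.3, empirical Bayes with a trend), second (n = 2) against first (n = 2) libraries, which take the 2 passages as replicates, and Benjamini-Hochberg adjustment over 11025 genes. This scale understates changes of low genes. Folds are ratios of mean RPKM. The fit was tested on simulated data. Tables and figures used Python 3.11.15, pandas 2.3.3 and scipy 1.17.1. The labels pair the libraries of a population, whose passage deviations did not correlate across genes (r = 0.014). Named genes are the 15 largest called changes each way without LOC or RGD numbers as symbols (0 passed over among the higher, 2 among the lower), up to 6 called members per list or single members that a count turns on, genes the study names, markers and pairs of related genes that differed in direction. Of the genes this rule covers, 6 are not reported here by name, though counts and medians of lists include them. The members, lists and rules were chosen with earlier results of these data known, and the 1.5-fold rule was added after seeing the data. Alternatives were another pseudocount, other minimums, 2 scalings, a block for the population, no trend, length correction in 20 bins, voom on recovered reads (added after seeing the data) and each library left out.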

Additional observations from a re-analysis of the deposited data

How the results depend on the processing

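The 8126 called genes of 11025 tested became 6507 of 8086 with a minimum of 5 RPKM and 8497 of 20333 with no minimum. The called share was thus far lower with no minimum. The other alternatives with 2 libraries a group tested 11024 or 11025 genes and called numbers between these. With 1 library left out, the lone library of a group is assumed to vary like the others, so counts of those fits are not given. The 119 genes at 2-fold or more became 250 with a pseudocount of 0.1 RPKM, 242 at a sum of 1000000 and 268 with voom on recovered reads. The 2-fold limit is set on log2(RPKM + 1), which understates changes of low genes, and each of these alternatives alters that scale. Which genes entered the count was not examined. The rule of 1.5-fold gave 665. In the paired fit, with a replicate block for the population, 8134 genes were called and 120 reached 2-fold. With the library number as the block, 1 gene was called between passages in place of 0. Of 261 named genes under 13 alternatives, 9 changed sign. Under length correction these were Tubb2a (-0.006), Gmnn (-0.102), Pmp22 (-0.079), Sox10 (-0.058), Tubb5 (-0.056), H2afz (-0.103) and H3f3b (-0.101). Under median-ratio scaling they were Aldh5a1 (-0.01), Pmp22 (-0.034), Sox10 (-0.057), Mitf (-0.042), Tubb5 (-0.019) and H3f3b (-0.008), and at a sum of 1000000 Aldh5a1 (-0.041), Pmp22 (-0.067), Sox10 (-0.09), Mitf (-0.081), Tubb5 (-0.052) and H3f3b (-0.041). Mitf ranged from -0.014 to 0.096 with 1 library left out, the lowest value without the second library of passage 39. With 2 libraries a group, all separations rest on 4 values per gene, and the lowest of the 30 largest changes had 10 reads.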

Other observations

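Genes that neighbour each other on the chromosome differed somewhat alike between the library numbers. In the gene order of the RefSeq GRCr8 table, which matched 10024 tested genes by symbol or a single synonym, the second minus first differences of 10003 neighbouring pairs had a Pearson correlation of 0.147 (Spearman 0.158). The same pairs had 0.019 (Spearman 0.038) for the passage difference. Successive pairs share a gene. Both neighbours were called at 1.5-fold or more in the same direction in 38 pairs and in opposite directions in 6. The pairs named here were chosen after their values were seen. The lipid transporter genes Abca8a and Abca9 had log2 differences of -2.43 and -1.39, and the metalloreductase genes Steap1 and Steap2 of 1.37 and 1.18. The homeobox genes Hoxc13 and Hoxc12 stood at 0.98 and 0.96, and the semaphorin genes Sema3c and Sema3e at -0.66 and -1.03. Unrelated neighbours were among them as well. Stard4 and Nrep stood at -1.01 and -1.69, Lpcat2 and Mmp2 at -1.10 and -1.97, and Igfbp5 and Tns1, which encodes a focal adhesion protein, at -1.94 and -0.78.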
